A study of Mus musculus with 19 samples.

Results

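Regorafenib given alone was compared with vehicle in oral squamous cell carcinomas of mice, using 8 of the 19 RNA sequencing libraries of the study: 4 from mice on regorafenib and 4 from mice on vehicle. The members were chosen by the treatment named in the sample titles, and every gene that passed a filter on low counts was tested, 16909 of 55487 in the table. All groups were C57BL/6J mice whose drinking water held 4-nitroquinoline 1-oxide (4NQO), 100 µg/ml, for 10 weeks starting at 6 weeks of age, followed by plain water, so the vehicle mice carried the carcinogen too. Regorafenib was given at 5 mg/kg/day. A further comparison, of 5 libraries on regorafenib with anti-PD1 (the combination) against 3 on anti-PD1 alone, shares no library with the first, and the labels give no separate regorafenib dose for it. Nothing in the labels ties each library to its own animal. The p-values therefore rest on differences among libraries that could be partly technical. The labels name the tissue as oral squamous cell carcinoma and do not say how much adjoining tissue was taken.

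Regorafenib, a drug taken by mouth, blocks several kinases: the receptors for vascular endothelial growth factor, which drive vessel growth, those for platelet-derived and fibroblast growth factors, which act on pericytes and stromal cells, and the kinases RET, KIT and CSF1R among others. Signals from these receptors run in part through the RAS-MAPK cascade, whose output is commonly read from feedback genes such as the DUSP phosphatases and Sprouty proteins. Inhibiting a kinase need not change its own transcript, so the levels below describe RNA and not kinase activity. 4NQO is a carcinogen that damages DNA and gives squamous tumours of tongue and oesophagus, so that tumour can lie close to tongue muscle and minor salivary glands.

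The 8 libraries held 17096257 to 24969492 counts. Levels are given as CPM, counts scaled to a common library size by TMM, which also corrects for composition, and compare a gene between libraries, not one gene with another. Transcripts of other tissues differed between the groups before any tumour gene is considered. Summed over 21 sarcomere genes, the vehicle libraries held 43900, 44600, 45900 and 51500 CPM and the regorafenib libraries 35300, 38000, 29800 and 31900, without overlap. Of 5 stomach genes (Pgc, Gkn1, Gkn2, Atp4a and Atp4b) the vehicle libraries held 0.0504 to 0.208 CPM in all, and the regorafenib libraries 70.4, 48.2, 7.6 and 103. Salivary gland genes ran from 40.7 to 45200 CPM with vehicle and from 52.9 to 8150 with regorafenib, so that the groups overlapped. The part of muscle, stomach or gland RNA in the results was not tested. A fit with muscle as a covariate is given for the groups of genes below.

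**Figure D1:**
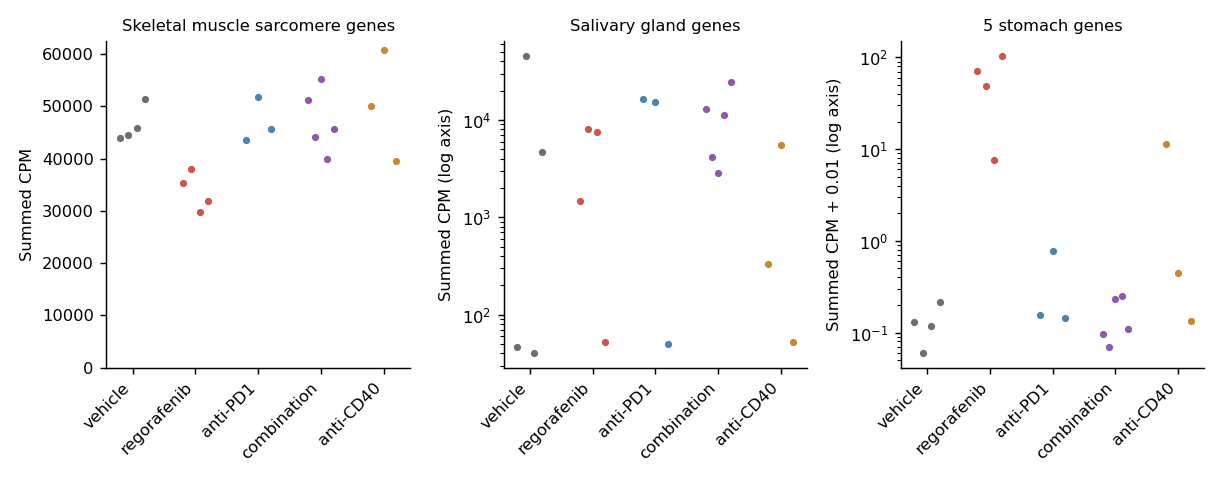
Summed CPM of sarcomere genes (linear axis), salivary gland genes (log axis) and 5 stomach genes (log axis, 0.01 added), 1 point per library, in the 5 treatment groups. The 4 regorafenib libraries lie at 7.6 to 103 CPM for stomach genes, where the vehicle libraries do not exceed 0.208.

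With regorafenib 562 genes rose and 507 fell, 6.32% of the genes tested, 3.32% upward and 3% downward (edgeR quasi-likelihood test, Benjamini-Hochberg adjusted p under 0.05). Before adjustment, 4147 genes had p under 0.05. Most changes were small: the median log2 change was 0.37 among rises and -0.47 among falls, and 54 rises and 26 falls reached 2-fold. In 524 of the rises and 450 of the falls the 4 libraries of one group all lay beyond those of the other. Among all 16909 tested genes, passing or not, 2739 were separated in this way. Calls and separation come from the same 8 libraries, so the separation is no further support for a call. The count for regorafenib against vehicle depended on which library was left out. It was 269 without vehicle 4, 280 without regorafenib 4, 464 without vehicle 3, 473 without regorafenib 1 and 645 without regorafenib 3. With the mean of the sarcomere genes as a covariate 62 genes passed, 58 of them among the 1069, and of the 98 genes named here with a call 16 still passed. That mean itself differed between the groups, at 10.02 to 10.38 log2 CPM with vehicle and 9.58 to 10.05 with regorafenib. The covariate thus takes up part of the treatment difference, and a call lost with it cannot be assigned to muscle or to treatment. For a gene named below, "held in 8 of 8" means that it still passed in each of the 8 fits that left out 1 library.

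The largest rises were in genes of the stomach lining and of digestive enzymes. Pgc, which encodes pepsinogen C, had 718, 863, 97 and 1170 counts in the regorafenib libraries and 3, 1, 0 and 1 in the vehicle libraries. Pla2g1b, a secreted phospholipase, had 143, 121, 12 and 119 counts against 0 in all 4 vehicle libraries, at least 141-fold higher when vehicle is set at 3 counts over the group. Atp4b, a subunit of the gastric acid pump, was at least 37.1-fold higher on the same basis, and its partner Atp4a had 199 counts against 2, a ratio of 107 with a 95% interval of 29.1 to 886 for counting error. The mucosal protein Gkn1 had 898 counts against 1, Gkn2 719 against 2, Clps (colipase) 819 against 4 and Mucl3 246 against 2. All 4 libraries on regorafenib alone carried them, regorafenib 3 the fewest. The 5 combination libraries, also on regorafenib, held only 0.0591 to 0.241 CPM of the 5 stomach genes summed above. The anti-PD1 libraries held 0.146, 0.775 and 0.135 CPM. Not every stomach gene was higher: Gkn3 had 16 counts with regorafenib against 32 with vehicle, and Gast 4 against 7. Sst had 6 against 3. Of 21 stomach genes with counts 12 passed the filter on low values, and most of those had 5 counts or fewer over the vehicle libraries, so the share that rose is no measure of the list. The number that rose was 10, and 5 without vehicle 4, 6 without vehicle 3 or regorafenib 4, and 4 with muscle as a covariate. Pgc, Pla2g1b, Atp4a, Clps and Mucl3 held in 8 of 8. These had 5 counts or fewer over the vehicle libraries and passed the filter through the regorafenib libraries. The fits are therefore no independent support for their calls.

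Beside these, the 12 largest rises and the 12 largest falls held genes of low abundance. Slitrk5 (ENSMUSG00000033214.10, GRCm38 chromosome 14 from 111675097 to 111683141), a membrane protein of synapses, read 2.98, 2.17, 1.86 and 4.88 CPM with regorafenib against 0.477, 0.453, 0.32 and 0.259. Its log2 change was 2.94 ± 0.43 (SE; edgeR adjusted p = 0.00197, held in 8 of 8). Nat8l, the enzyme that makes N-acetylaspartate, rose from 4.29 to 15.8 CPM, and Pthlh, which encodes the parathyroid hormone-related protein of squamous tumours, from 2.61 to 9.25 CPM. In Pthlh the vehicle libraries lay within 2.45 to 2.82 CPM, and regorafenib 1 and 4 at 14.7 and 12.9 were the highest. Both calls held in 3 of 8 fits and were lost without vehicle 1, vehicle 3, vehicle 4 or regorafenib 4, Nat8l also without regorafenib 3 (adjusted p up to 0.0909) and Pthlh without regorafenib 1 (up to 0.0892). Of the falls, Cyp2b19, a cytochrome of keratinising skin, had a log2 change of -1.44 ± 0.32 (held in 6 of 8, lost without vehicle 3 or regorafenib 4 at adjusted p up to 0.0562). Best3, a bestrophin chloride channel, read 4.33, 4.53, 5.49 and 4.31 CPM with vehicle and 2.92, 2.26, 1.8 and 2.44 with regorafenib (log2 change -0.98 ± 0.18, held in 8 of 8). With muscle as a covariate Slitrk5 passed (2.42, adjusted p = 0.0326) and Best3 did not (-0.81, adjusted p = 0.0853). Mylk3, a myosin light chain kinase of striated muscle, had a log2 change of -1.03 ± 0.24 (held in 7 of 8, lost without vehicle 3 at adjusted p = 0.0549).

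Of 18 tested genes of kinases that regorafenib blocks none rose and Pdgfrb and Ddr2 fell (11.1%, against 6.32% of all genes), with 12 of the 18 lower and a median log2 change of -0.14 against 0.00 over all genes. The platelet-derived growth factor receptor Pdgfrb (ENSMUSG00000024620.11), a pericyte receptor, read 38.8, 30.2, 35.8 and 38.3 CPM with vehicle and 29.5, 23.3, 22.1 and 25.8 with regorafenib, a log2 change of -0.51 ± 0.14 (adjusted p = 0.0385). The collagen receptor Ddr2 (ENSMUSG00000026674.9, chromosome 1 from 169972307 to 170110762) read 28.3, 20, 24.7 and 24.7 CPM against 17.8, 15.3, 18.3 and 19.5, a log2 change of -0.46 ± 0.12 (adjusted p = 0.0302). The groups did not overlap in either gene. Pdgfrb held in 2 of 8 fits (adjusted p up to 0.118) and Ddr2 in 1 of 8 (up to 0.0831), and no target gene fell without regorafenib 2, regorafenib 3, regorafenib 4, vehicle 1 or vehicle 4. Their changes with muscle as a covariate were -0.29 and -0.48, and neither passed (adjusted p = 0.322 and 0.13).

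The vascular endothelial growth factor receptors were lower on average without passing. Flt1 read 75.5, 70.6, 77.3 and 99.2 CPM with vehicle and 59.4, 61.3, 52.9 and 62.4 with regorafenib, a log2 change of -0.45 ± 0.14 (adjusted p = 0.0586). Its groups did not overlap. Those of the main receptor Kdr did, at 43.3 ± 8.03 (SD, n = 4) and 35.3 ± 2.14 CPM (log2 change -0.29 ± 0.16), as did those of the lymphatic receptor Flt4 (-0.25 ± 0.14) and the angiopoietin receptor Tek (-0.18 ± 0.15). The fibroblast growth factor receptors differed in sign: stromal Fgfr1 was at -0.28 ± 0.09 and epithelial Fgfr2 at 0.28 ± 0.09, neither passing (adjusted p = 0.0625 and 0.0562). Pdgfra stood at 33.1 ± 0.986 and 25.3 ± 1.65 CPM without overlap (-0.38 ± 0.14, adjusted p = 0.098). The cytoplasmic kinases Braf (-0.14 ± 0.08) and Abl1 (-0.07 ± 0.05) and the receptors Kit (0.03 ± 0.29), Ret (0.03 ± 0.17), Csf1r (-0.15 ± 0.10) and Epha2 (0.17 ± 0.11) did not pass, nor did Mapk11 (0.37 ± 0.16) or Frk (0.26 ± 0.19).

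None of 18 tested angiogenic and stromal growth factors passed, with a median log2 change of -0.14. Vegfa, the principal ligand of Kdr, read 143, 124, 113 and 133 CPM with vehicle and 127, 115, 123 and 136 with regorafenib, and its groups overlapped (log2 change -0.04 ± 0.12). The largest differences were in Fgf2 (-0.45 ± 0.17) and the epithelial growth factor Fgf7 (-0.42 ± 0.13, adjusted p = 0.0529), whose libraries did not overlap. Vegfc, a lymphatic ligand, was at 0.34 ± 0.18, and Angpt2, the vessel-destabilising angiopoietin, at -0.10 ± 0.27. Placental growth factor, Pgf, ran from 0.532 to 3.01 CPM with regorafenib, wider than the 1.14 to 1.7 CPM of vehicle.

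**Figure D2:**
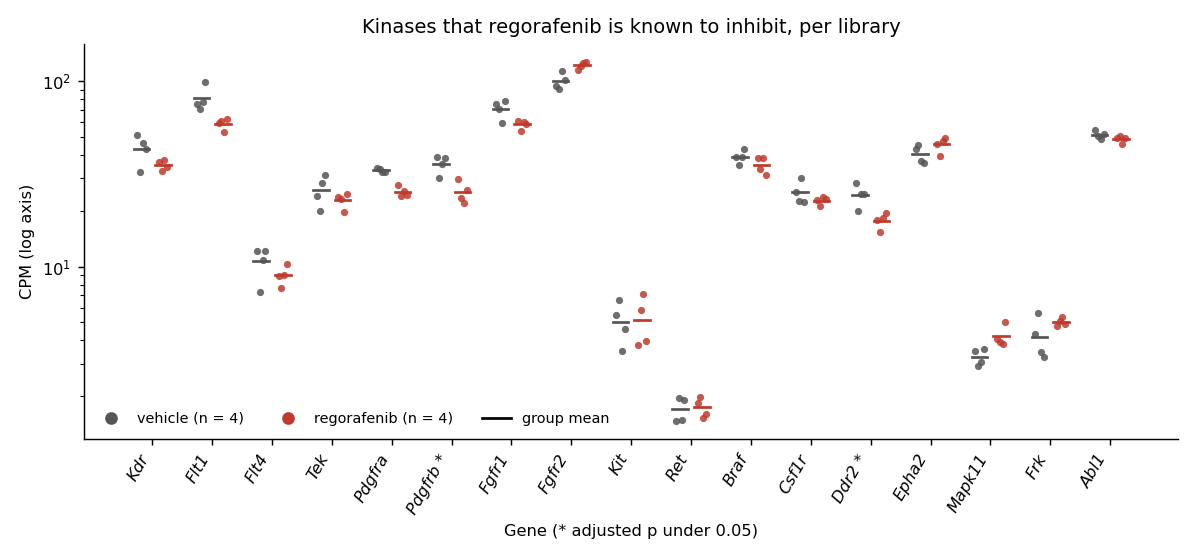
CPM (log axis) of 17 of the 18 tested target kinases, 1 point per library for the 4 vehicle and 4 regorafenib libraries, with lines at the group means and an asterisk where the adjusted p was under 0.05. Pdgfrb and Ddr2 carry the asterisk, and in both every regorafenib library lies below every vehicle library.

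No blood endothelial marker passed. Of 20 tested 15 were lower, with a median log2 change of -0.24. Pecam1, an adhesion molecule of endothelium, stood at 91.7 ± 14.6 CPM with vehicle and 70.6 ± 8.37 with regorafenib (log2 change -0.38 ± 0.13, adjusted p = 0.0789), and the cadherin Cdh5 at 66.6 ± 11 and 54.2 ± 4.78 (-0.30 ± 0.14). The list median was -0.02 with muscle as a covariate. Of 6 tested lymphatic endothelial genes the mucin-type glycoprotein Pdpn rose (log2 change 0.42 ± 0.12, adjusted p = 0.0496) and the hyaluronan receptor Lyve1 fell (-0.51 ± 0.15, adjusted p = 0.0469). Each held in 2 of 8 fits, and neither passed with muscle as a covariate. The share called was 33.3%, against 6.32% of all genes. In bulk tissue fewer cells of a type and less RNA per cell cannot be told apart. Among 12 pericyte and smooth muscle genes 1 fell (8.33%, near the 6.32% of all genes). It was the potassium channel subunit Abcc9, from 91.7 ± 8.08 to 64 ± 7.11 CPM (log2 change -0.52 ± 0.12, adjusted p = 0.0204, held in 5 of 8 and lost without vehicle 1, vehicle 4 or regorafenib 4 at adjusted p up to 0.0733). Its channel partner Kcnj8 was at -0.52 ± 0.16 (adjusted p = 0.0527) and Rgs5, a G-protein regulator of pericytes, at -0.35 ± 0.12, while the contractile gene Acta2, named after its values were seen, overlapped between groups (0.07 ± 0.23). Of 16 fibroblast genes Mfap5 and Dcn fell (12.5%, against 6.32% of all genes) and 13 were lower, and of 16 collagen genes none passed. Decorin, Dcn, read 603, 490, 616 and 651 CPM with vehicle and 479, 391, 424 and 459 with regorafenib (log2 change -0.43 ± 0.13), at an adjusted p that rounds to the threshold. No fibroblast gene fell without vehicle 3, vehicle 4 or any 1 of the regorafenib libraries.

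Of 16 tested feedback genes of the MAPK cascade, Dusp6 and Phlda1 rose (12.5%, against 6.32% of all genes), none fell, and the median was 0.08. Dusp6 (ENSMUSG00000019960.8, chromosome 10 from 99263231 to 99267489), the phosphatase that switches off ERK, read 29.1, 28.8, 28 and 39.3 CPM with regorafenib against 17.7, 23.8, 19.2 and 19.4, a log2 change of 0.65 ± 0.12 (adjusted p = 0.00745, held in 8 of 8). All 4 regorafenib libraries lay above all 4 vehicle libraries. With muscle as a covariate Dusp6 stood at 0.48 (adjusted p = 0.0957), no feedback gene passed and the median was 0.00. Phlda1 overlapped through vehicle 2 at 30 CPM (log2 change 0.68 ± 0.16, adjusted p = 0.023, held in 3 of 8 with adjusted p up to 0.0831, lost without vehicle 1, 3 or 4 or regorafenib 1 or 4). The Sprouty gene Spry4 was lower (-0.49 ± 0.21) and Spry2 (0.09 ± 0.10), Spry1 (-0.14 ± 0.10), Etv5 (-0.30 ± 0.11), Etv4 (0.51 ± 0.17) and Dusp4 (0.00 ± 0.33) overlapped between groups, none of them passing. Of 12 genes of the epidermal growth factor receptor family and its ligands Areg rose and Erbb4 fell (16.7%, against 6.32% of all genes). Erbb4 held in 2 of 8 fits (adjusted p up to 0.0915). Amphiregulin, Areg, read 12.7, 4.83, 7.55 and 9.09 CPM with regorafenib against 3.53, 5.74, 3.3 and 2.28 (log2 change 1.19 ± 0.34, adjusted p = 0.0454, held in 2 of 8, up to 0.144), with overlap, while the receptor Egfr stood at 79.3 ± 9.2 CPM with vehicle and 77.6 ± 5.04 with regorafenib.

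Keratins of basal and wounded epithelium rose. Basal keratinocytes anchor squamous epithelium to its basement membrane and express Krt5 and Krt14, and the Krt6, Krt16 and Krt17 genes are switched on in wounds, hyperproliferation and squamous carcinoma. Of 14 basal genes 5 rose and 1 fell (median log2 change 0.44), and of 12 wound-type genes 6 rose and none fell (median 0.86, all 12 higher). The shares called were 42.9% and 50%, against 6.32% of all genes. Offsets for exon length and GC content left 4 basal and 2 wound-type genes passing, at medians of 0.41 and 0.82. Krt16 (ENSMUSG00000053797.10, chromosome 11 from 100246091 to 100248902) read 5430, 4430, 5240 and 5580 CPM with regorafenib against 3350, 3210, 2810 and 1780 (log2 change 0.89 ± 0.22, adjusted p = 0.0286). The lowest regorafenib library lay above the highest vehicle library, and vehicle 4 was the lowest of all. Krt17 rose from 627 ± 173 to 1310 ± 359 CPM, Krt6b from 4460 ± 1010 to 7920 ± 644 and Krt6a from 6230 ± 669 to 8850 ± 760. The cornified envelope precursors Sprr1b and Sprr1a, expressed above the basal layer, rose by 0.53 ± 0.15 and 0.66 ± 0.19 on the log2 scale.

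Some adhesion genes of the basal layer rose. The integrin subunit Itga6, which joins basal cells to laminin in hemidesmosomes, read 205, 185, 214 and 285 CPM with regorafenib against 166, 153, 146 and 131, without overlap (log2 change 0.58 ± 0.11, adjusted p = 0.00868, held in 8 of 8). P-cadherin, Cdh3, rose from 41.1 ± 7.24 to 70.3 ± 9.98 CPM (held in 6 of 8, lost without vehicle 4 or regorafenib 4 at adjusted p up to 0.0552), and the laminin chain Lama3 from 45.9 ± 2.69 to 77.1 ± 29.2 CPM, with regorafenib 4 at 119. The laminin chain Lamb3, named after its values were seen, did not pass (0.55 ± 0.19). The hemidesmosome linker Dst fell (-0.35 ± 0.09), with overlap between groups. Its exons span 41155 bases, and with offsets for exon length and GC content it stood at -0.06 (adjusted p = 0.745). Trp63, the transcription factor of squamous identity, was at 0.28 ± 0.12 and overlapped. Of 18 genes of the differentiated layers none passed (median 0.08).

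The keratin counts depended on the libraries. Krt14 passed in 8 of 8 fits, Krt6b in 7, Krt6a in 4, Krt5 and Krt16 in 3, Krt17, Lama3 and Sprr1b in 2, and Sprr1a and Dst in 1. The highest adjusted p values were 0.055 for Krt6b, 0.106 for Krt6a, 0.12 for Krt5, 0.0924 for Krt16, 0.125 for Krt17, 0.115 for Lama3, 0.129 for Sprr1b, 0.149 for Sprr1a and 0.133 for Dst. Of the wound list none rose without vehicle 4, 1 rose without regorafenib 1, 3 or 4 and 2 without vehicle 3. Of the basal list 2 rose without vehicle 4 or regorafenib 4, and 3 without vehicle 2, vehicle 3 or regorafenib 1. In vehicle 4 the neutrophil and wound gene S100a8 stood at 3.11 CPM against 137 to 626 in the other vehicle libraries. No gene of either list passed with muscle as a covariate, and the medians were 0.17 and 0.41.

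Genes of DNA replication and mitosis were higher in nearly every case, and a share of them passed. The MCM proteins form the helicase that opens DNA at replication origins, Cdt1 loads it, and both are known targets of E2F factors when cells enter S phase. Of 21 replication genes 8 rose, none fell and 20 were higher (median log2 change 0.42). Of 21 mitosis genes 4 rose, none fell and all 21 were higher (median 0.33). The shares called were 38.1% and 19%, against 6.32% of all genes. Promoters of 3 of the risen replication genes are shown for their E2F-type motif, from RefSeq on GRCm38.p6, 5′ to 3′ in the direction of the gene, covering 250 bases before to 50 after its start. Capitals mark matches to TTTCCCGC, TTTGGCGC, TTTCGCGC or TTTGCCGC on either strand. Mcm5 lies at chr8:75109259-75109558 on the plus strand and Cdt1 at chr8:122567765-122568064 on the plus strand. Mcm3 lies at chr1:20820263-20820562 on the minus strand.
Mcm5: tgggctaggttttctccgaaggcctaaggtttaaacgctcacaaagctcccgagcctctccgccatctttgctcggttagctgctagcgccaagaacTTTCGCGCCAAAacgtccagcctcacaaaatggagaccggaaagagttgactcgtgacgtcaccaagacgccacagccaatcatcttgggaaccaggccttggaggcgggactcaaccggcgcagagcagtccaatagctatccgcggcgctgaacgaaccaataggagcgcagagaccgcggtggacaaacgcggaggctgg
Cdt1: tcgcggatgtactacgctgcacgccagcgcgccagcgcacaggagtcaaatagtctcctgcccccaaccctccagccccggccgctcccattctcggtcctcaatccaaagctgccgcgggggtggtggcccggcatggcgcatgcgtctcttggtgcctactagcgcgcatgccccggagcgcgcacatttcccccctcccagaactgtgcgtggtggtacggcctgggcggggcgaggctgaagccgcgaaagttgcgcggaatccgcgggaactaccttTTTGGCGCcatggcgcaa
Mcm3: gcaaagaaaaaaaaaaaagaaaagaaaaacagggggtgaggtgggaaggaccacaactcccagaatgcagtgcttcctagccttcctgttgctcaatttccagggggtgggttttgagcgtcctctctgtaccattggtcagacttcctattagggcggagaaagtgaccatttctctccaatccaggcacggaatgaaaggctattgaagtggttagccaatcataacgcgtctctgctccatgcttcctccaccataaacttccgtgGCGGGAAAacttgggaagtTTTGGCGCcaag
In Mcm5 a pair of matches on opposite strands overlap in 1 stretch, in Cdt1 the match lies near the end of the window, and in Mcm3 there are 2 close to its end.

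The motif was common in replication genes whether or not they passed. Promoters could be matched by symbol for 16 of the 21 replication genes, and 7 of them (43.8%) held a match, against 2.6% of 27025 genes with a promoter in the table and 4.2% of the 12005 tested genes matched. It was in 3 of the 7 matched replication genes that rose and in 4 of the 9 that did not pass. Of 16 matched mitosis genes 1 held it. A match is only a run of letters, and binding was not measured. Among all genes that rose 6.86% of 423 matched held it, and among those that fell 2.59% of 386.

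Mcm5 (ENSMUSG00000005410.6, chromosome 8 from 75109569 to 75128439) read 29.3, 21.1, 24.3 and 30.1 CPM with regorafenib against 15.6, 18.9, 12.3 and 16.1, a log2 change of 0.73 ± 0.13 (adjusted p = 0.00656, held in 8 of 8). Every regorafenib library lay above every vehicle library. Mcm2 rose by 0.60 ± 0.13, Mcm3 by 0.63 ± 0.16 and Mcm4 by 0.49 ± 0.11 on the log2 scale, while Mcm6 (0.33 ± 0.12) and Mcm7 (0.24 ± 0.09), members of the same ring, overlapped between groups and did not pass. Cyclin E1, Ccne1, which triggers entry into S phase, rose from 3.96 ± 1.1 to 8.55 ± 1.38 CPM (log2 change 1.10 ± 0.25), and Ccne2 did not pass (0.08 ± 0.17). Mcm6, Mcm7, Ccne2 and Cdt1 were named after their values were seen. Among kinases of mitosis, Aurka (ENSMUSG00000027496.15, chromosome 2 from 172356190 to 172370535) read 8.6, 9.13, 9.35 and 9.93 CPM against 6.59, 5.14, 5.59 and 5.76 (log2 change 0.68 ± 0.12, adjusted p = 0.00656, held in 8 of 8). The regorafenib libraries were close together and all above vehicle. Plk1 rose by 0.57 ± 0.13 (held in 5 of 8), Cdc20 by 0.39 ± 0.10 (3 of 8) and Birc5 by 0.43 ± 0.12 (2 of 8), with adjusted p up to 0.0698, 0.115 and 0.12.

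The replication calls too changed with the library left out: 1 gene rose without vehicle 4, 2 without vehicle 3 or regorafenib 4 and 3 without regorafenib 1. The number was 5 without vehicle 1 and 10 without vehicle 2. The list median lay between 0.29 and 0.5 in the fits with 1 library left out. Mcm2 held in 6 of 8, Mcm4 and Ccne1 in 5, Mcm3 in 4 and Rrm1, a subunit of ribonucleotide reductase, in 3, with adjusted p up to 0.0595, 0.0673, 0.0707, 0.097 and 0.0856. Cdt1 held in 2 (up to 0.163). Of mitosis genes 1 rose without vehicle 4 or regorafenib 4 and 2 without vehicle 1, regorafenib 2 or regorafenib 3. With muscle as a covariate none of either list passed, at medians of 0.28 and 0.19, and Mcm5 stood at 0.64 (adjusted p = 0.0853) and Aurka at 0.51 (adjusted p = 0.0853). Of 13 targets of p53 none passed (median -0.03).

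**Figure D3:**
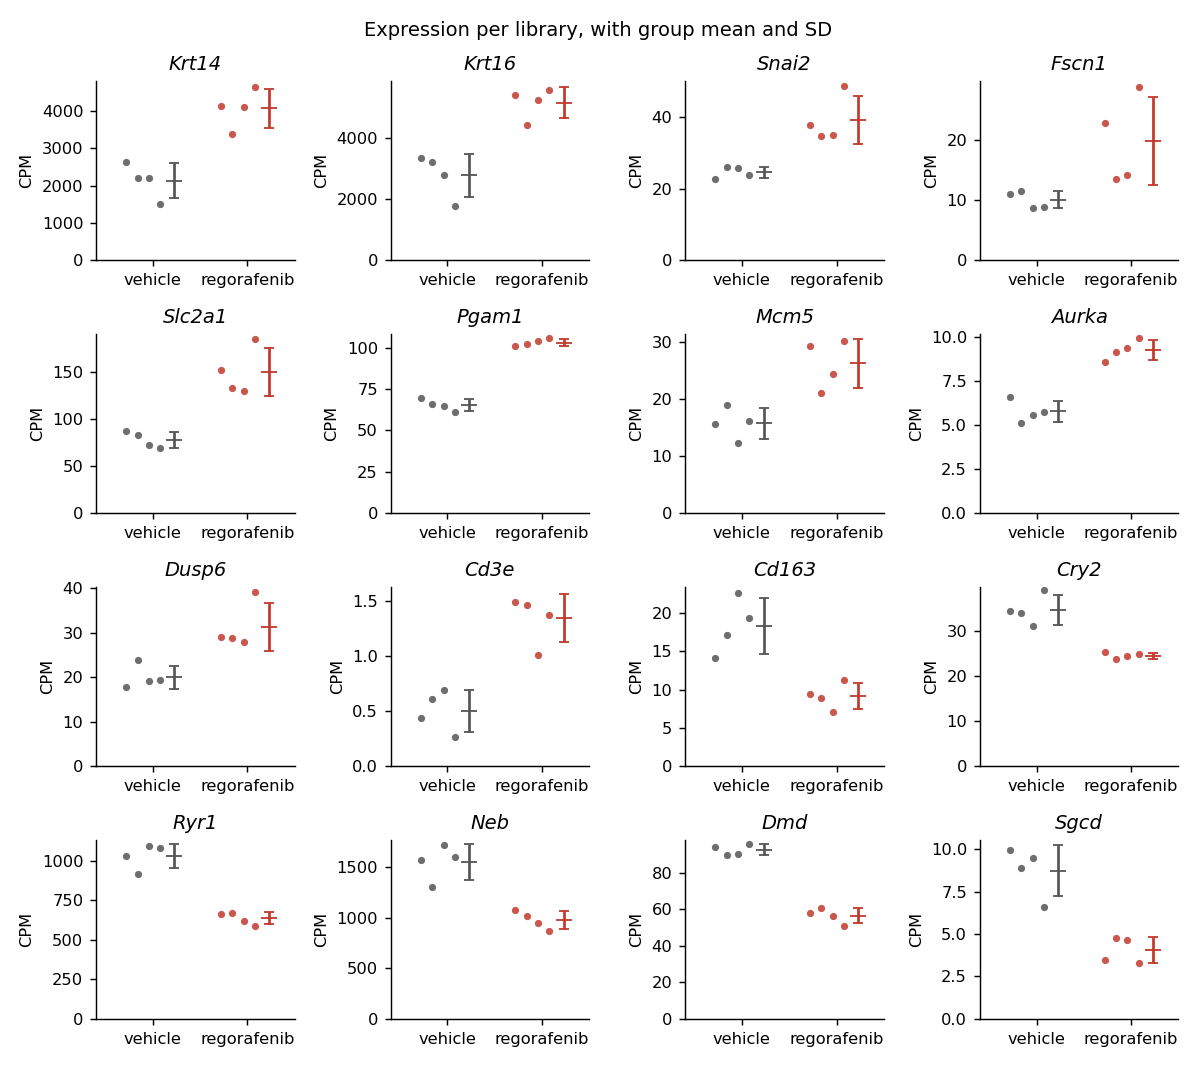
CPM in each of the 4 vehicle and 4 regorafenib libraries for 16 genes, with mean and SD. In Pgam1, Dmd, Cry2, Aurka and Mcm5, each with its own axis, the points of one group all lie beyond those of the other.

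Some genes of glycolysis rose. Glycolysis turns glucose into pyruvate, and tumours often use the isoforms that are not muscle-specific. Of 17 tested genes 6 rose and none fell (35.3%, against 6.32% of all genes), with a median of 0.12. Pgam1 (ENSMUSG00000011752.7, chromosome 19 from 41911923 to 41918660), the phosphoglycerate mutase of non-muscle cells, read 101, 102, 104 and 106 CPM with regorafenib against 69.5, 65.9, 64.7 and 60.8. Its log2 change of 0.66 ± 0.07 had an adjusted p of 0.000353 and held in 8 of 8 fits. The groups lay far apart beside the spread within each. The glucose transporter Slc2a1 read 152, 133, 130 and 185 CPM against 87.4, 83.1, 72.3 and 69.5 (held in 8 of 8). The liver-type phosphofructokinase Pfkl rose from 50.3 ± 5.56 to 77 ± 9.94 CPM and the platelet-type Pfkp from 75.8 ± 8.06 to 104 ± 10.5 (both 8 of 8), while the muscle-type Pfkm was lower (-0.41 ± 0.16, adjusted p = 0.112), as was Hk2 (-0.24 ± 0.09). Pfkm was chosen after its values were seen. Eno1 rose by 0.47 ± 0.11 (held in 6 of 8, lost without vehicle 4 or regorafenib 4 at adjusted p up to 0.0671) and Ldha, lactate dehydrogenase A, by 0.30 ± 0.08 (2 of 8, adjusted p up to 0.11).

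The glycolysis count was 4 to 6 in the fits with 1 library left out. With muscle as a covariate 4 of the 17 passed, among them Pgam1 (log2 change 0.59, adjusted p = 0.00462), Pfkl (0.55, adjusted p = 0.0326) and Slc2a1 (0.81, adjusted p = 0.0316). Of 15 targets of hypoxia-inducible factor Adm and Higd1a rose (13.3%, against 6.32% of all genes), and the list median was -0.01. Adm and Higd1a held in 1 of 8 fits each, at adjusted p up to 0.139 and 0.153. Car9, a pH regulator commonly taken as a hypoxia marker, stood at 3.63 CPM in regorafenib 4 and at 0.631 or less in the other 7 libraries. All 20 subunits of oxidative phosphorylation were lower (median -0.21). Ndufs1 alone fell (5%, near the 6.32% of all genes), by 0.32 ± 0.09 on the log2 scale (held in 1 of 8, adjusted p up to 0.121). The median of the 20 was -0.02 with muscle as a covariate.

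**Figure D4:**
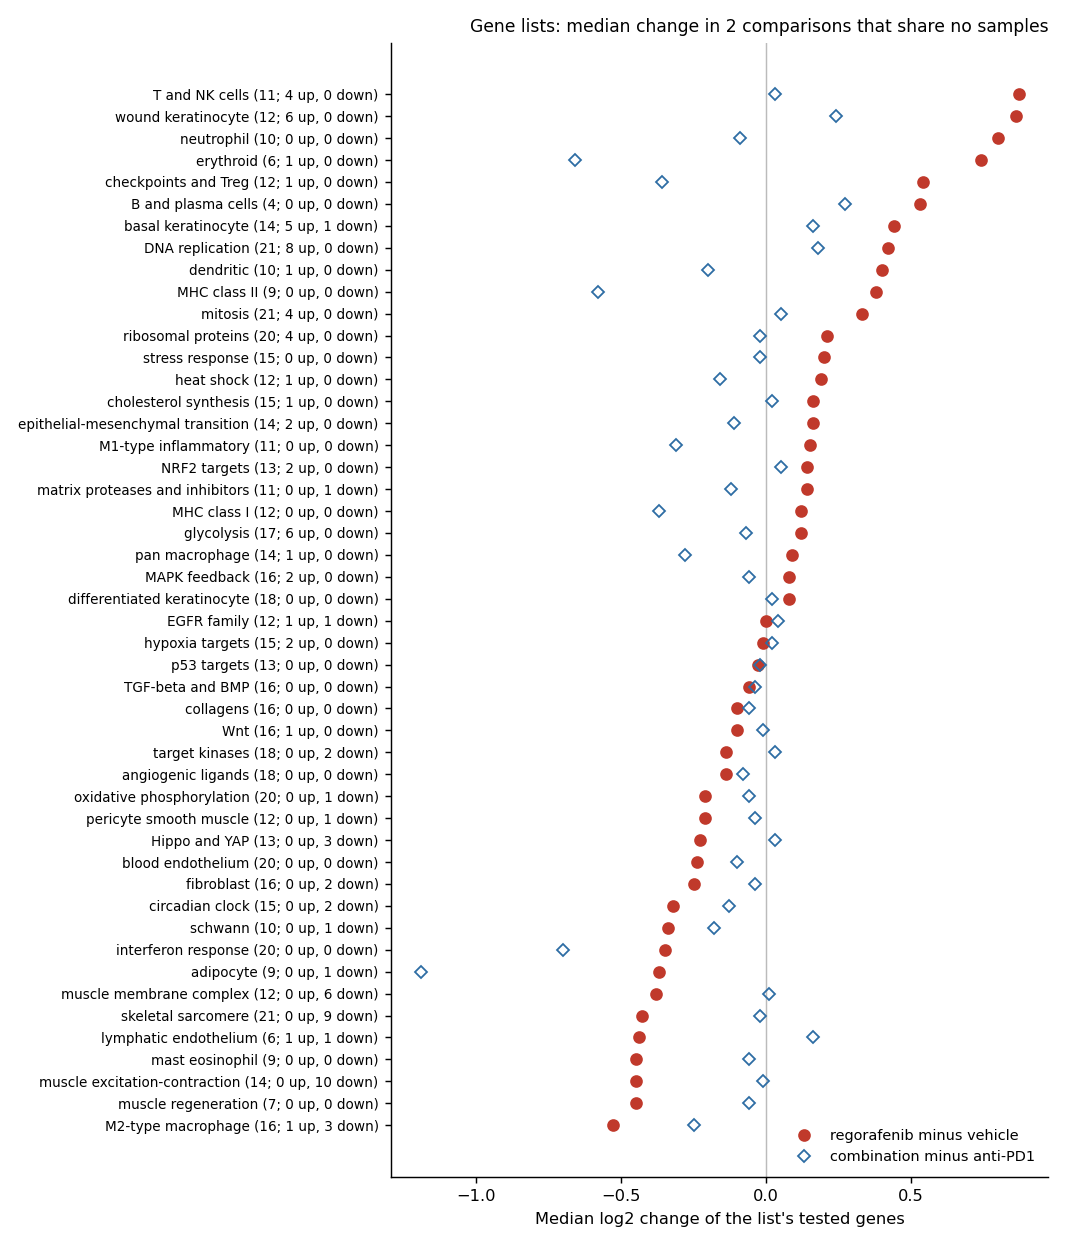
Median log2 change of 48 gene lists with regorafenib against vehicle (circles) and with regorafenib added to anti-PD1 (diamonds). Medians with regorafenib alone run from wound keratins (0.86) and T cell genes (0.87) to M2-type macrophage genes (-0.53).

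Genes of contracting muscle fell. Skeletal muscle moves through myosin and actin filaments held in sarcomeres, is triggered by calcium released through Ryr1, and is joined to the matrix by dystrophin and the sarcoglycans. Of 21 sarcomere genes 9 fell and none rose (median log2 change -0.43). Of 14 genes of excitation-contraction coupling 10 fell and none rose (-0.45), and of 12 genes of the dystrophin complex and membrane 6 fell and none rose (-0.38). The shares called were 42.9%, 71.4% and 50%, against 6.32% of all genes. The 9 sarcomere genes were on the list whose mean log2 CPM served as the muscle covariate, 10.02, 10.27, 10.2 and 10.38 in the vehicle libraries and 9.84, 10.05, 9.65 and 9.58 in the regorafenib libraries. On that scale regorafenib 2 lay above vehicle 1. Neb, the giant ruler of the thin filament, read 1570, 1300, 1720 and 1600 CPM with vehicle and 1080, 1020, 945 and 872 with regorafenib (log2 change -0.66 ± 0.11, adjusted p = 0.00356, held in 8 of 8). The groups lay apart. The fast myosin Myh4 fell from 10900 ± 1480 to 7730 ± 445 CPM (held in 3 of 8, adjusted p up to 0.101), and the M-band protein Myom1 and the myosin-binding protein Mybpc1 fell by 0.58 ± 0.11 and 0.62 ± 0.12 (both 8 of 8). Skeletal actin, Acta1, was lower by -0.45 ± 0.15 without passing (adjusted p = 0.0686).

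Dystrophin and delta-sarcoglycan changed most among the membrane genes. Dmd (ENSMUSG00000045103.19, chromosome X from 82948870 to 85206141) read 94.3, 89.9, 90.1 and 95.9 CPM with vehicle and 57.8, 60.7, 56.4 and 50.9 with regorafenib, a log2 change of -0.71 ± 0.10 (adjusted p = 0.00136). Sgcd (ENSMUSG00000020354.15, chromosome 11 from 46896253 to 47988969) read 9.97, 8.87, 9.48 and 6.59 CPM against 3.5, 4.78, 4.67 and 3.32, a log2 change of -1.10 ± 0.15 (adjusted p = 0.00136). Both held in 8 of 8, and neither overlapped. Sarcospan, Sspn (-0.45 ± 0.09), fell less and also held in 8 of 8, while the alpha subunit Sgca and dystroglycan, Dag1, held in none, at adjusted p up to 0.17 and 0.141. Among coupling genes the calcium release channel Ryr1, the sodium channel Scn4a and the junction protein Trdn held in 8 of 8.

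With the sarcomere mean as a covariate Dmd (log2 change -0.53, adjusted p = 0.00623), Sgcd (-1.04, adjusted p = 0.0155), Ryr1 (-0.49, adjusted p = 0.0135), Neb (-0.49, adjusted p = 0.0326), Myom1 (-0.36, adjusted p = 0.0473) and Mybpc1 (-0.37, adjusted p = 0.0479) still passed. Those were 3 of the 21 sarcomere genes, 1 of the 14 coupling genes and 2 of the 12 membrane genes. Leaving out regorafenib 4 gave 3 falls in the sarcomere list and 3 in the coupling list, and leaving out vehicle 4 gave 3 and 4. Without regorafenib 3 they were 4 and 4, without vehicle 3 they were 5 and 6, and without regorafenib 1 they were 4 and 6. In the membrane list 4 to 6 genes fell in those fits. All 7 genes of muscle regeneration were lower and none passed (median -0.45). Of 9 adipocyte genes Lipe fell and of 10 Schwann cell genes Sox10 fell, with medians of -0.37 and -0.34 (held in 2 and 3 of 8, adjusted p up to 0.134 and 0.122). The shares called were 11.1% and 10%, against 6.32% of all genes.

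Transcripts of T cells were scarce and higher with regorafenib. Of 17 T and natural killer cell genes 11 passed the filter on low counts, 4 rose and all 11 were higher (median log2 change 0.87). The share called among the 11 was 36.4%, against 6.32% of all genes. The members that did not pass the filter were too scarce to test, so the 11 do not speak for the list. Cd3e (ENSMUSG00000032093.7, chromosome 9 from 44998740 to 45009627), a chain of the T cell receptor complex, read 1.49, 1.46, 1.01 and 1.37 CPM with regorafenib against 0.437, 0.605, 0.692 and 0.259 (log2 change 1.42 ± 0.28, adjusted p = 0.0102, held in 8 of 8). The groups did not overlap. Cd8a and Cd8b1, the chains of the cytotoxic coreceptor, rose from 0.3 ± 0.0508 to 0.914 ± 0.314 CPM and from 0.163 ± 0.0679 to 0.495 ± 0.147 CPM. Cd3g rose from 1.05 ± 0.148 to 1.9 ± 0.474 CPM, while the helper coreceptor Cd4, named after its values were seen, overlapped (log2 change 0.29 ± 0.30).

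The T cell calls changed with the library left out: 1 gene rose without vehicle 4, regorafenib 2 or regorafenib 4, and 2 rose without vehicle 1 or vehicle 3. The list median lay between 0.7 and 0.97 in the fits with 1 library left out. Cd3g and Cd8b1 held in 4 of 8 and Cd8a in 1 of 8, with adjusted p up to 0.105, 0.122 and 0.104. With muscle as a covariate none passed, although the list median was 0.90 and Cd3e stood at 1.40 (adjusted p = 0.0798). Pdcd1, the gene of PD1, read 1.55, 0.975, 0.845 and 1.33 CPM against 0.635, 0.756, 0.586 and 0.208 (log2 change 1.08 ± 0.35, adjusted p = 0.0706). Its groups did not overlap. Of 12 checkpoint and regulatory T cell genes 1 rose (8.33%, near the 6.32% of all genes). It was the costimulatory receptor Tnfrsf18, from 1.27 ± 0.259 to 2.21 ± 0.407 CPM (held in 5 of 8, lost without vehicle 3, vehicle 4 or regorafenib 4 at adjusted p up to 0.0741). The median over the 12 was 0.54.

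Of 16 genes of resident, M2-type macrophages Cd163, Siglec1 and Lyve1 fell and Stab1 rose (25%, against 6.32% of all genes, median log2 change -0.53, 13 lower). Their summed level overlapped between groups, at 339 to 445 CPM with vehicle and 402 to 439 with regorafenib. Cd163 (ENSMUSG00000008845.9, chromosome 6 from 124304656 to 124330527), the haemoglobin scavenger receptor, read 14.1, 17.1, 22.7 and 19.4 CPM with vehicle and 9.4, 8.95, 7.1 and 11.3 with regorafenib, a log2 change of -0.99 ± 0.17 (adjusted p = 0.00656, held in 8 of 8). The groups lay apart. The sialic acid receptor Siglec1 fell from 1.35 ± 0.603 to 0.558 ± 0.133 CPM (held in 1 of 8, adjusted p up to 0.143), and Lyve1, which also marks lymphatic vessels, from 17.6 ± 3.49 to 12.3 ± 1.67 CPM (2 of 8, up to 0.176). Stab1, a scavenger receptor too, rose from 36.5 ± 6.04 to 48.8 ± 9.46 CPM (3 of 8, up to 0.167). Without vehicle 3, vehicle 4, regorafenib 1, regorafenib 2 or regorafenib 3 a single gene of the list fell. With muscle as a covariate none passed, and Cd163 stood at -0.79 (adjusted p = 0.0853).

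Of 14 pan-macrophage genes 1 rose (7.14%, against 6.32% of all genes) and none fell, and the median was 0.09. The macrophage marker Adgre1 (0.02 ± 0.18), Cd68 (-0.04 ± 0.12) and the Csf1 receptor overlapped. Of 10 dendritic cell genes Fscn1 rose (10%, against 6.32% of all genes). Fascin, Fscn1, bundles actin in mature dendritic cells and in motile carcinoma cells, and read 22.9, 13.6, 14.2 and 28.9 CPM against 11, 11.6, 8.79 and 8.92 (log2 change 0.98 ± 0.19, adjusted p = 0.00926, held in 8 of 8, and 0.104 with muscle as a covariate). Of 12 genes of class I antigen presentation, 9 of class II, 20 interferon-induced genes, 10 neutrophil genes, 9 mast cell and eosinophil genes and 4 B cell genes none passed, with medians of 0.12, 0.38, -0.35, 0.80, -0.45 and 0.53. Of 6 erythroid genes the beta globin Hbb-bs rose (16.7%, against 6.32% of all genes, held in 2 of 8, adjusted p up to 0.133).

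Among regulators of cell shape and plasticity, Snai2 rose and the angiomotins fell. Snai2 (ENSMUSG00000022676.7, chromosome 16 from 14705852 to 14709385), a transcriptional repressor active in epithelial-mesenchymal transition and in basal keratinocytes at wounds, read 38, 34.7, 35 and 48.9 CPM with regorafenib against 22.9, 26, 25.8 and 23.8, without overlap (log2 change 0.67 ± 0.12, adjusted p = 0.00656, held in 8 of 8). E-cadherin, Cdh1, rose too, from 263 ± 23 to 320 ± 19.8 CPM (1 of 8, adjusted p up to 0.165). The other 12 genes of that list did not pass, with Vim at -0.33 ± 0.12, and the share called was 14.3%, against 6.32% of all genes. Of 13 Hippo-YAP genes Amotl2, Amotl1 and Tead1 fell (23.1%, against 6.32% of all genes, median -0.23). Amotl2, a scaffold that binds YAP, read 57, 53.7, 59.1 and 51.3 CPM against 70.9, 66.6, 68.1 and 84.2 (log2 change -0.39 ± 0.07, adjusted p = 0.00835, held in 8 of 8). Amotl1 held in 7 of 8 (lost without regorafenib 4 at adjusted p = 0.0521) and the YAP partner Tead1 in 3 of 8 (up to 0.0985), and 1 of the 3 remained without regorafenib 4 and 2 without vehicle 1, 3 or 4 or regorafenib 1. The adjusted p with muscle as a covariate was 0.088 for Snai2 and 0.0798 for Amotl2. Yap1 itself stood at 151 ± 7.19 and 152 ± 3.05 CPM and was named after its values were seen.

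All 15 tested clock genes were lower (median log2 change -0.32) and Cry2 and Tef fell (13.3%, against 6.32% of all genes). The clock is a loop in which Per and Cry proteins repress their own activators, so its transcripts vary with the time of day, which the labels do not give. Cry2 read 25.2, 23.7, 24.3 and 24.8 CPM with regorafenib against 34.3, 33.9, 31.1 and 39 (log2 change -0.50 ± 0.08, adjusted p = 0.00483). Tef, an output factor of the clock, read 63.9, 72.4, 65.3 and 65.4 CPM against 97.1, 94.1, 88.5 and 109 (log2 change -0.54 ± 0.09, adjusted p = 0.00348). Both held in 8 of 8 and passed with muscle as a covariate (adjusted p = 0.0422 for each). Per1, Per2 and Cry1 overlapped between groups.

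The share of stress genes called was near that of all genes in heat shock genes (8.33%) and above it in NRF2 targets (15.4%), with few genes in each. Of 13 NRF2 targets, which defend against oxidants, Gclm and Tkt rose (median 0.14), Tkt in 2 of 8 fits (adjusted p up to 0.138). Gclm, the modifier subunit of the enzyme that makes glutathione, read 225, 194, 179 and 213 CPM with regorafenib against 140, 155, 137 and 113 (log2 change 0.58 ± 0.11, adjusted p = 0.00683, held in 8 of 8, and 0.0853 with muscle as a covariate), while Nqo1 (0.02 ± 0.10) and Hmox1 (-0.24 ± 0.10) did not pass. None of 15 genes of the unfolded protein and integrated stress responses passed (median 0.20), and of 12 heat shock genes Dnajb1 rose (held in 4 of 8, adjusted p up to 0.085). All 20 tested ribosomal protein genes were higher (median 0.21), and Rpl10a, Rpl13, Rps2 and Rps3 rose (20%, against 6.32% of all genes). Those calls held in 1, 4, 6 and 0 of 8 fits, with adjusted p up to 0.131, 0.109, 0.0686 and 0.148, and in none without vehicle 4 or regorafenib 4. Offsets for exon length and GC content left none of the 20 passing (median 0.18). Of 11 matrix metalloproteinases and their inhibitors Timp3 fell (log2 change -0.51 ± 0.12), of 16 WNT genes Sfrp1 rose (0.41 ± 0.10) and of 15 genes of cholesterol synthesis Msmo1 rose (0.27 ± 0.08), shares of 9.09%, 6.25% and 6.67% beside 6.32% over all genes, held in 4, 4 and 2 of 8 fits with adjusted p up to 0.0968, 0.101 and 0.148. None of 16 genes of the TGF-beta and BMP pathways passed (median -0.06).

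The effect of regorafenib was also measured on top of anti-PD1. There 1 gene passed, 0.00591% of the 16909, and 1681 reached an unadjusted p under 0.05. Of the 562 genes that rose with regorafenib alone, 362 (64.4%) were also higher when it was added to anti-PD1, and of the 507 that fell 206 (40.6%) were also lower. Over all genes 53.1% had the same sign. The gene that passed was Pappa, a protease that frees insulin-like growth factor, at 37.7 ± 2.95 CPM (n = 3) with anti-PD1 and 72.2 ± 14.9 (n = 5) with the combination, against a log2 change of 0.20 ± 0.12 with regorafenib alone. The count was 0 without anti-PD1 1, anti-PD1 3 or combination 4, and 15 without anti-PD1 2. At an unadjusted p under 0.05 with anti-PD1, 85 of the rises went the same way and 16 the opposite way, and of the falls 12 went the same way and 43 the opposite. Among all 16909 genes 935 went the same way and 746 the opposite way at that threshold. Amotl2 stood at -0.43 ± 0.08 there (adjusted p = 0.0688), close to its change with regorafenib alone. Slitrk5 was at 1.72 ± 0.44 and Gclm at 0.30 ± 0.11, neither passing.

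The difference between the effects was itself tested. It passed for 106 genes, 0.627% of those tested, and 88 of these had also passed with regorafenib alone, 65 as falls and 23 as rises. With offsets for exon length and GC content 18 genes passed, and with muscle as a covariate 36. In 104 of the 106 the signs were opposite. The difference contains the change with regorafenib alone, with its sign reversed. The overlap with those calls and the opposite signs are therefore partly built in. Dmd stood at 78.1 ± 9.66 CPM (n = 3) with anti-PD1 and 95.3 ± 8.31 (n = 5) with the combination, and the difference of effects was 1.00 ± 0.14 on the log2 scale (adjusted p = 0.0096). Sgcd differed by 1.47 ± 0.22 (adjusted p = 0.0096), Neb by 0.92 ± 0.15 (adjusted p = 0.0138) and Ryr1 by 0.82 ± 0.15 (adjusted p = 0.0248). Of the genes that rose with regorafenib alone, Dusp6 differed by -0.84 ± 0.17 (adjusted p = 0.0377), Pgam1 by -0.52 ± 0.10 (adjusted p = 0.0377) and Pfkl by -0.58 ± 0.13 (adjusted p = 0.0486). Ptgs2, the inducible cyclooxygenase, named after its values were seen, read 18.1, 7.4, 7.26 and 16.4 CPM with regorafenib against 3.69, 4.69, 2.56 and 2.96, and 7.52 ± 3.27 CPM (n = 3) with anti-PD1 against 3.96 ± 0.8 (n = 5) with the combination. Its difference of effects was -2.74 ± 0.46 (adjusted p = 0.0192). Leaving out 1 of the 16 libraries of the 4 groups moved the count of 106 to between 11 (without anti-PD1 1) and 177 (without anti-PD1 2). It was 12 without regorafenib 4, 13 without vehicle 3 or anti-PD1 3, 15 without vehicle 4, 24 without combination 4, 33 without regorafenib 1, 34 without vehicle 1, 37, 53 and 38 without combination 1, 2 and 3, and 56 without regorafenib 2.

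The changes also varied with the length of the gene's exons. Of 10 equal bins of genes, in the shortest, from 57 to 1197 bases, the median log2 change was 0.07 and 0.473% fell, and in the longest, from 9352 to 123179 bases, it was -0.09 and 9.35% fell. Rises were most frequent in bin 3 (4.68%) and least in the longest (1.42%). With regorafenib added to anti-PD1 the medians ran the other way, from -0.05 to 0.09. With offsets for exon length and GC content those of regorafenib against vehicle lay between -0.01 and 0.02, and 780 genes passed, 452 upward and 328 downward, 658 of them among the 1069. Dmd then stood at -0.53 (adjusted p = 0.006). RNA integrity values were not used here, and the part of RNA quality in this pattern was not tested.

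**Figure D5:**
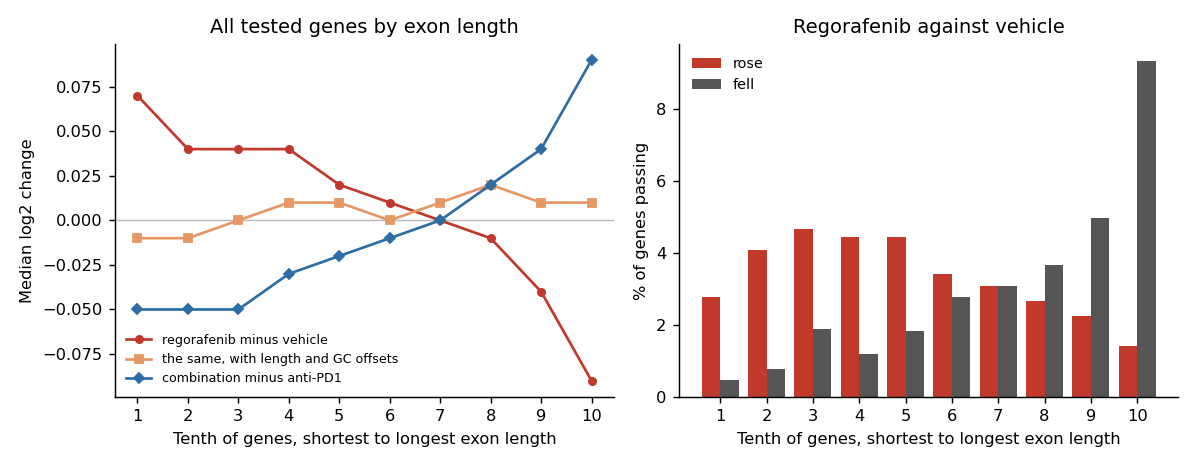
Left, median log2 change of all tested genes in 10 bins from shortest to longest exon length, for regorafenib against vehicle without and with offsets for length and GC, and for the combination against anti-PD1. Right, percent of genes in each bin that rose or fell with regorafenib, the falls running from 0.473% to 9.35%.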

How the data were processed

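PolyA RNA was sequenced from TruSeq Stranded mRNA libraries, per the labels' protocols. The submitters' processing notes name STAR 2.7.2a, cutadapt 2.4 and GRCm38. How reads were counted, on which strand and with which annotation is not stated by the labels, so reads of overlapping or near-identical genes may be split. The authors deposited raw counts per gene for 19 libraries, grouped by their labelled treatment: vehicle 4, regorafenib 4, anti-PD1 3, combination 5 and anti-CD40 3.

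Of 55487 genes, 16909 passed filterByExpr by group and held 99.92% of counts. One model with a mean per group was fitted to all 19 libraries, with TMM scaling and edgeR 4.0.16 quasi-likelihood tests (robust, R 4.3.3), two-sided and Benjamini-Hochberg adjusted over all tested genes at 0.05. It gave regorafenib against vehicle, regorafenib added to anti-PD1, and the difference of both. Alternatives used DESeq2 1.42.0, limma 3.58.1, other scaling, filters, covariates and offsets, and left out each library in turn. On simulated data for the first comparison 57%, 79% and 90% of 200 genes changed 1.5-, 2- and 3-fold were recovered. Symbols came from GENCODE M21 by gene ID (55227 of 55487 matched), promoters from RefSeq.

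Named genes are the 12 largest rises and 12 largest falls with a mean of at least 1 CPM in either group, up to 6 passing members with the smallest p and the first 4 tested members of each list, all target kinases, ligands and feedback genes, and the stomach genes. Others are marked in the text. Members and lists were chosen with earlier results of these data known. A few listed genes are not reported here.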

Additional observations from a re-analysis of the deposited data

Results flagged for a closer look

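In 308 groups of 4 libraries, 1 value per named gene and group, a single library stood apart from the other 3 in 15, where about 1 in 20 is picked by chance. In the vehicle group these were Adgre1 in vehicle 3 (6.44 CPM), Cdh5 and Phlda1 in vehicle 2 (50.3 and 30.0 CPM) and Spry1 and Tkt in vehicle 4 (33.7 and 172 CPM). Also picked were Gkn1 in vehicle 3 (0.0533 CPM, 1 count), and Gkn2 and Mucl3 in vehicle 4 (0.104 CPM, 2 counts each). These 3 genes had 0 counts in the other vehicle libraries, so that any count stood apart. In the regorafenib group the values picked were Car9, Dusp6 and Spry2 in regorafenib 4 (3.63, 39.3 and 16.3 CPM), Egfr and Krt6b in regorafenib 3 (85.1 and 8870 CPM), and Fgf7 and Vegfc in regorafenib 1 (15.5 and 3.1 CPM).

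The effect of regorafenib differed between mice without and with anti-PD1, by the test of the difference itself, for 14 named genes (edgeR, adjusted p under 0.05). The effect was higher with anti-PD1, on the log2 scale, by 1.00 for Dmd, 1.47 for Sgcd, 0.92 for Neb, 0.82 for Ryr1, 1.25 for Best3, 0.64 for Dst, 0.53 for Amotl1 and 2.07 for Cyp2b19. The difference was -2.74 for Ptgs2, -0.52 for Pgam1, -0.84 for Dusp6, -0.54 for Dnajb1, -1.39 for Hbb-bs and -0.58 for Pfkl.

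In libraries outside these comparisons, the 5 stomach genes summed to 11.5 CPM in anti-CD40 1 and 0.437 CPM in anti-CD40 2, above the highest vehicle library at 0.208 CPM.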

How the results depend on the processing

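For regorafenib against vehicle, regorafenib added to anti-PD1 and the difference of the effects, 1069, 1 and 106 genes passed. DESeq2 gave 1684, 110 and 582, limma with sample weights 1673, 10 and 200, and the salivary gland covariate 1714, 9 and 292. The skeletal muscle covariate gave 62, 6 and 36, and a test against a fold threshold 22, 0 and 5. Offsets for exon length and GC content gave 0 for regorafenib added to anti-PD1 and 18 for the difference, where fitting only those groups gave 164. Without a filter 10 genes passed for regorafenib added to anti-PD1. Leaving out 1 library gave 269 to 1139, 0 to 15 and 11 to 177. With RLE scaling, 92 of the 98 named genes with a call kept it, with DESeq2 90 of the 90 it tested, and with the muscle covariate 16. No named gene with a call changed direction in any alternative run.

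The replicate numbers share only a number: same-numbered vehicle and regorafenib libraries had correlations of 0.13, 0.51, -0.36 and -0.08 between their deviations from the group means. With the replicate block 715, 0 and 36 genes passed, and with a block on the table's column numbers, which leaves fewer pairs, 35, 0 and 3.

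Genes changed 1.5-fold were recovered in 57% of cases in the simulation, so a gene that did not pass is not shown to be unchanged. The small groups and the low counts of single T cell genes limit what can be called.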
